A study of Mus musculus with 4 samples.

Results

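The chemokine ligands are the genes for small secreted proteins that steer migrating cells, and here they were every row of the count table whose gene name was Cxcl or Ccl with a number, Cx3cl1 or Xcl1. The name rule found 44 of 32285 rows, carrying 38 distinct symbols. Of these, 27 had 10 or more counts summed over the libraries of a strain, 4 had 1 to 9 counts and 13 had no count. RNA was sequenced in 4 libraries of spermatogonia kept in culture (GS cells), which came from testes of wild-type mice aged 10 days. The 2 libraries of the C57BL/6 group (B6) are titled B6 F0, a term the labels do not explain, and the other 2 are from strain 129. The comparison asks how expression differs between the strains. No source used here says whether the cultures held feeder or other somatic cells. Nor does one say whether a strain's libraries stem from different mice or dishes, so the p-values reflect only how far these samples spread, which may be technical.

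Chemokines are grouped by the spacing of their cysteines into CXC, CC, C and CX3C families, and they act on G protein-coupled receptors on the responding cell. CXC ligands with a glutamate-leucine-arginine (ELR) motif draw neutrophils, many CC ligands draw monocytes, and the homeostatic ligands place cells in resting tissue. In the testis, Cxcl12 and its receptor Cxcr4 are known for guiding germ cells, including spermatogonial stem cells.

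Totals ran from 20375086 to 25374801 counts per library. All 10 spermatogonial markers on the list used (among them Ddx4, Dazl, Zbtb16 and Gfra1) were above 1 CPM (a gene's counts relative to its library's TMM-scaled depth) in at least 1 library. Their summed level was 2779 and 3067 CPM in B6 and 2424 and 3149 CPM in 129 (replicates 1 and 2). Here too the sum hides strain differences in both directions. Both B6 libraries were above for 6 markers (Ddx4, Dazl, Zbtb16, Id4, Lin28a and Nanos2), against 29.2% of all genes tested. Both 129 libraries were above for 2 (Ret and Etv5), against 31%, and edgeR called Etv5 (adjusted p = 0.032). All 10 fibroblast markers were present too, at 5912 and 3911 CPM in B6 and 6914 and 2685 CPM in 129. That sum holds strain differences in both directions. Both B6 libraries were above for 5 markers (Col1a1, Col1a2, Col3a1, Lum and Postn), and both 129 libraries for 3 (Dcn, Pdgfra and Pdgfrb). Col3a1 was at 1355 and 640 CPM in B6 and 423 and 126 CPM in 129, and Pdgfra at 42.6 and 38.7 CPM against 196 and 103 CPM. Of 11 macrophage markers, 7 reached 1 CPM in some library, with sums of 31.4 and 29.7 CPM in B6 and 51.9 and 20.9 CPM in 129. Of the 6 macrophage markers that were tested, both 129 libraries were above B6 for 1 and both B6 libraries above for 1. These were Cd14, at 2.45 and 3.46 CPM in B6 and 28.2 and 9.19 CPM in 129, and Lyz2. Lyz2 was at 9.71 and 16.8 CPM in B6 and 7.87 and 3.32 CPM in 129. Ptprc, the pan-leukocyte marker, stayed under 1 CPM in every library, and C1qb had no count in 129. The sum of 8 endothelial markers was 24.7 and 23.7 CPM in B6 against 204 and 86.7 CPM in 129, and that of 8 Sertoli markers 19.6 and 23.1 CPM against 220.0 and 129 CPM. A few genes carried these 129 sums: Eng (95.8 and 32.6 CPM) and Cdh5 (87.8 and 27.0 CPM) the endothelial one, and Clu (193 and 90.4 CPM) the Sertoli one. Pecam1, Tek, Tie1, Vwf and Emcn overlapped between strains, as did Cldn11 and Fshr, and Fshr had no count in 129. The 6 Leydig and 5 lymphocyte markers summed to 9.03 CPM at most, and 5 peritubular muscle markers to 23.4 to 92.1 CPM. In bulk RNA, fewer cells of a type and less RNA per cell cannot be told apart.

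Cxcl12 rose in 129, while Cxcl2 and Ccl20 fell. These were the 3 ligands called (adjusted p under 0.05) among the 18 that passed the low-count filter, 1 higher and 2 lower in 129, in edgeR's quasi-likelihood test with Benjamini-Hochberg adjustment. Over all genes tested the same test called 2.86%, with 1.84% higher and 1.02% lower. The other 15 ligands did not pass. The median log2 fold change (129 over B6) of the 18 was -0.08, beside 0.02 for all genes tested, with 8 ligands above 0 and 10 below. The libraries of the strains lay apart for 8 of the 18 (2 with 129 above and 6 with B6 above), against 60.1% of all genes tested (31% and 29.2%). DESeq2 called 6 of the 18, adding Ccl9 above and Ccl11 and Cxcl10 below, and it called 15.3% of all genes, 9.63% higher and 5.7% lower.

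The count of ligands called was 2 to 6 over the other analyses of the 4 libraries and 0 to 4 with a library left out. It was 4 with DESeq2 size factors (3.29% of all genes called), library totals (6.57%), non-robust estimation (3.59%) and the replicate number as a block (5.27%), each adding Ccl9. It was 3 without a filter (1.09%) and with a stricter one (2.06%), and 2 with limma-voom (1.64%) and the legacy form of edgeR (2.54%), each losing Cxcl2. Without 129 replicate 2 it was 4 (4.92% of all genes), namely Cxcl12, Ccl9, Cxcl1 and Ccl7, all higher in 129. Only Cxcl12 was called without 129 replicate 1 (0.0782% of all genes), and no ligand was called without B6 replicate 1 (0%) or B6 replicate 2 (0.00595%).

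**Figure D1:**
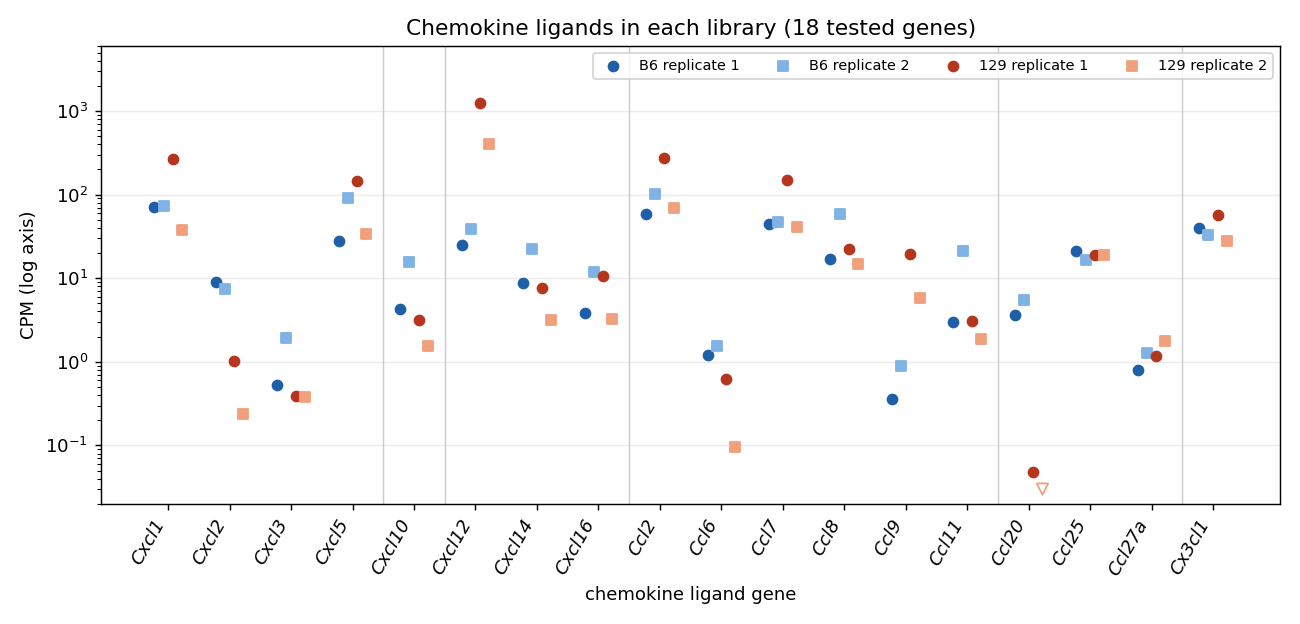
CPM (log axis) of the 18 tested ligands in each library, with grey lines between ligand classes and an open triangle for a count of 0, drawn at the foot of the axis. Cxcl12 is at 24.7 and 39.3 CPM in B6 and 1259.7 and 398 CPM in 129, while Ccl20 has 1 count in the 129 libraries together.

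**Figure D2:**
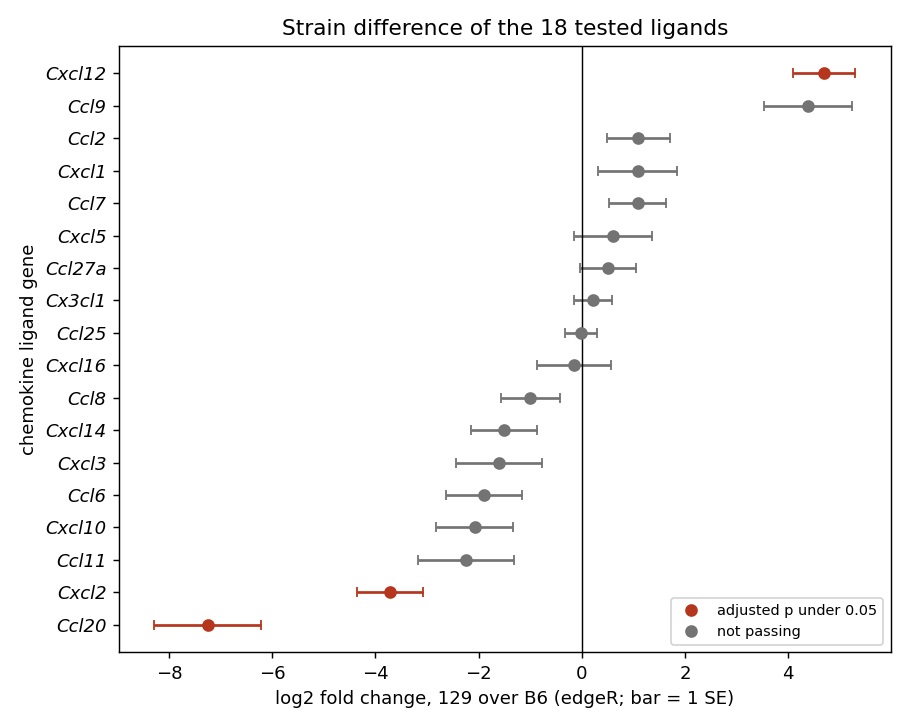
Log2 fold change, 129 over B6, of the 18 tested ligands from edgeR, with bars of 1 SE. Cxcl12 at 4.70 lies highest, and Cxcl2 at -3.72 and Ccl20 at -7.25 lie lowest; these 3 have an adjusted p under 0.05.

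Cxcl12 (stromal cell-derived factor, the ligand of Cxcr4) stood at 24.7 and 39.3 CPM in the B6 libraries and at 1259.7 and 398 CPM in the 129 libraries. Both 129 libraries were far above both B6 libraries, although they also differed from each other. The means were 32.0 ± 10.3 CPM in B6 and 829 ± 609 CPM in 129 (SD, n = 2 each), a log2 fold change of 4.70 (SE 0.60, edgeR adjusted p = 0.032). The gene (ENSMUSG00000061353, protein-coding) spans chr6:117168535-117181367 on the plus strand of mm10. Per kilobase of annotated exon, its level put it below 58.9% and 50.4% of the ranked genes in B6, and below 0.844% and 5.58% in 129. The log2 fold change was 3.64 without 129 replicate 1 and 5.30 without 129 replicate 2, both called. The call ended without B6 replicate 1 (adjusted p = 0.20) or B6 replicate 2 (adjusted p = 0.12), where edgeR called 0 and 1 of all genes tested. Both 129 libraries were also above both B6 libraries for 3 of 8 endothelial markers (Cdh5, Eng and Kdr) and 6 of 8 Sertoli markers. The same held for 3 of 10 fibroblast markers, for 2 of 10 spermatogonial markers, and for 31% of all genes tested. Both B6 libraries were above for 5 of the fibroblast markers and 6 of the spermatogonial markers, against 29.2% of all genes tested. The part of these markers in the Cxcl12 values was not tested.

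Cxcl12 took a different share of the ligand counts in each strain. It made up 7.24% and 7.10% of all chemokine ligand counts in the B6 libraries and 56.2% and 60.2% in the 129 libraries. These shares do not depend on library scaling, and the libraries of a strain lay closer to each other on this measure than on Cxcl12 CPM. They do depend on gene length, and Cxcl12 has 8176 exon bases. Per kilobase of exon, its share was 1.31% and 1.15% in B6 and 17.4% and 19.7% in 129. By that measure Ccl2 (27.0% and 24.4%) and Ccl7 (21.3% and 20.9%) had larger shares in 129. The summed level of all ligands was 341 and 553 CPM in B6 and 2241 and 660.3 CPM in 129, so 129 replicate 1 stood apart from the rest. Leaving Cxcl12 out, the sums were 317 and 514 CPM in B6 and 981 and 262 CPM in 129, and the strains overlapped.

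**Figure D3:**
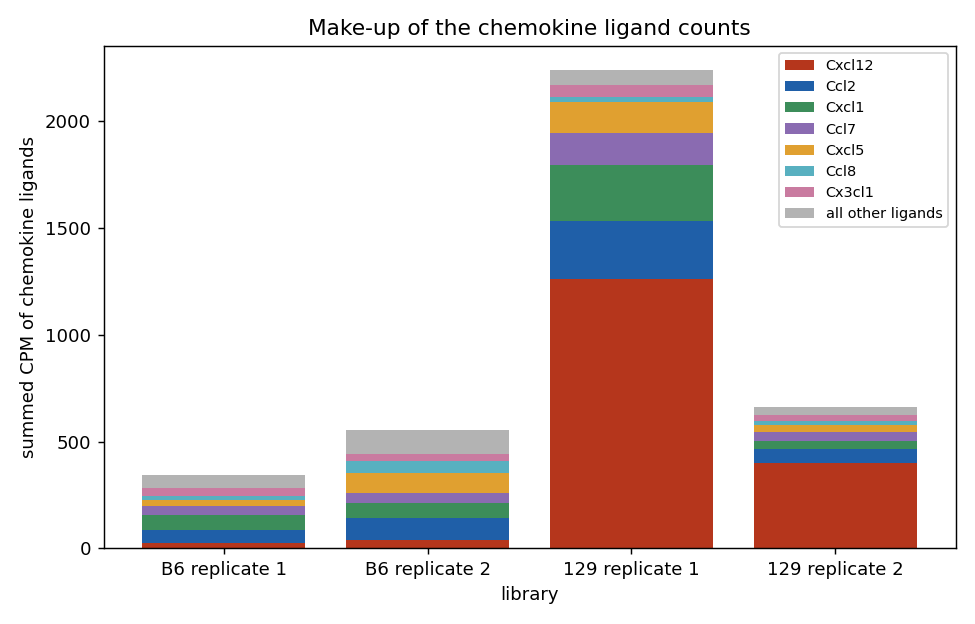
Summed CPM of the chemokine ligands in each library, split into the 7 most abundant and all others. CPM is not adjusted for gene length. The Cxcl12 segment is 24.7 and 39.3 CPM in B6 and 1259.7 and 398 CPM in 129, and the rest of the 129 replicate 2 bar, 262 CPM, is lower than that of either B6 bar.

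Among the ELR ligands, which act on Cxcr2 and draw neutrophils, Cxcl2 fell and its neighbour Cxcl1 did not pass. Cxcl2 (ENSMUSG00000058427, protein-coding, chr5:90903871-90905938, plus strand) was at 9.07 and 7.42 CPM in B6 and at 1.01 and 0.237 CPM in 129. Both 129 libraries were below both B6 libraries. Its log2 fold change was -3.72 (SE 0.64, edgeR adjusted p = 0.042) between means of 8.24 ± 1.17 and 0.625 ± 0.549 CPM (SD, n = 2 each). The call rests near the threshold: it ended with limma-voom (adjusted p = 0.054), with the legacy form of the edgeR fit (adjusted p = 0.053) and without any single library (adjusted p = 0.071 to 0.19), while the log2 fold change stayed between -5.09 and -3.02.

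Cxcl1 lies 10755 bases upstream of Cxcl2 on chromosome 5, and showed no such pattern. It was at 70.3 and 72.8 CPM in B6, with little spread, and at 265 and 37.6 CPM in 129, on both sides of B6 (log2 fold change 1.08, SE 0.77, edgeR adjusted p = 0.40). Without 129 replicate 1 that value was -0.92, and without 129 replicate 2 it was 1.89 and called (adjusted p = 0.020). For every 100 Cxcl1 counts there were 12.9 and 10.2 Cxcl2 counts in the B6 libraries and 0.383 and 0.631 in the 129 libraries. This within-library ratio, which scaling does not touch, was lower in both 129 libraries than in either B6 library. That separation follows from the CPM values already given for Cxcl2 and Cxcl1 and adds no independent support.

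Cxcl5, a further ELR ligand, was at 28.2 and 90.3 CPM in B6 and 145 and 33.8 CPM in 129, with the strains overlapping (log2 fold change 0.60, SE 0.75). Cxcl3, at 0.522 and 1.93 CPM in B6 and 0.386 and 0.379 CPM in 129, did not pass (log2 fold change -1.60, SE 0.83). Cxcl15, known as lungkine, had 2 counts in each B6 library and 9 and 3 in 129, too few to be tested.

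Ccl20, the ligand of Ccr6 and an attractant of dendritic cells and lymphocytes, was all but absent from 129. The gene (ENSMUSG00000026166, protein-coding) spans chr1:83116766-83119167 on the plus strand. It had 91 and 110 counts in the B6 libraries (3.65 and 5.44 CPM) and 1 and 0 counts in the 129 libraries (0.0483 and 0 CPM). The B6 to 129 ratio was 186, with an exact 95% counting interval of 33.1 to 7394 that covers counting error only. That ratio was 92.3 without 129 replicate 2, and without 129 replicate 1, where no count was left, the floor of 3 counts in that library puts B6 at least 31.3-fold higher. The fitted log2 fold change of -7.25 (SE 1.03, edgeR adjusted p = 0.032) depends on the prior count. No other analysis of the 4 libraries ended the call, but leaving out any 1 library did (adjusted p = 0.057 to 0.17).

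The 250 bases before the RefSeq start (GRCm38.p6) are shown for Cxcl12, Cxcl2 and Ccl20, which were called, and for the other ligands whose window holds a motif of the NF-kappaB type (GGG and TTTCC with any 2 bases between them, on either strand), because that factor is a textbook inducer of inflammatory chemokines. Capitals mark each match, and the sequences run 5′ to 3′ on the strand of the gene.
Cxcl12: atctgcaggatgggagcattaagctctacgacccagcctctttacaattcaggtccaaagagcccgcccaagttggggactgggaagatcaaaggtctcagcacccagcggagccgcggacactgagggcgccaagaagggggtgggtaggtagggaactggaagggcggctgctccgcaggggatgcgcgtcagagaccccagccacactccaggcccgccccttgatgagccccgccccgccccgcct
Cxcl2: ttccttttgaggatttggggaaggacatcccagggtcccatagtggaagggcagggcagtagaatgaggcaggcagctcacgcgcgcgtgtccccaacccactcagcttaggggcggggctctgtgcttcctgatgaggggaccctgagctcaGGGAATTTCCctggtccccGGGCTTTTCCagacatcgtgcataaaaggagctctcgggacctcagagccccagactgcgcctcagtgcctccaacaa
Cxcl1: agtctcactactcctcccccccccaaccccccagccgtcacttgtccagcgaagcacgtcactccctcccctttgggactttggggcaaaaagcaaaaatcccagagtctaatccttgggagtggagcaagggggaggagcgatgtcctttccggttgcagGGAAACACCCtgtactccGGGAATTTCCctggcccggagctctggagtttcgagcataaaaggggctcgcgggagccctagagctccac
Cxcl3: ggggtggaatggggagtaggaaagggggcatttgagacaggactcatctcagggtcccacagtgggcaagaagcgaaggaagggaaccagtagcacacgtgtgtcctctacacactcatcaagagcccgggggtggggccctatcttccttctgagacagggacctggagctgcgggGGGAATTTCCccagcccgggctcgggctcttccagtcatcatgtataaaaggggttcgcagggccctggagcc
Ccl20: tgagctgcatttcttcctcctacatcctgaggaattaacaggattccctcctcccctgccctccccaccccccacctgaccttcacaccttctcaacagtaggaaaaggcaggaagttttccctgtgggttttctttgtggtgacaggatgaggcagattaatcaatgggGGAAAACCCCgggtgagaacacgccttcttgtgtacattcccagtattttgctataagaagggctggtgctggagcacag
Ccl9: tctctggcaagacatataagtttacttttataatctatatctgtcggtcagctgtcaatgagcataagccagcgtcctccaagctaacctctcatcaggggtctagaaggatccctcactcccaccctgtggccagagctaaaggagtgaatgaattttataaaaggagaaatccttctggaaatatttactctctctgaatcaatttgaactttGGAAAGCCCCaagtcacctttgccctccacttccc
Of the 27 members with 10 or more counts in a strain, 20 had a RefSeq promoter entry, with 23 windows in all. Ccl2, Ccl7, Cxcl5 and Ccl11 were among those without one and could not be searched. The motif was found in 5 of the 23 windows, those of Cxcl1, Cxcl2, Cxcl3, Ccl20 and Ccl9. It was found in 1.41% of all 32851 promoter windows of this length. Cxcl1 and Cxcl2 have 2 matches each. The Cxcl12 window has none, and its GC content was 64.4%, exceeded by 17.7% of all windows, against 60% for Cxcl2 and 51.2% for Ccl20. Among the 5 members with a match, Ccl9 and Cxcl1 had positive log2 fold changes (4.38 and 1.08), and Cxcl3, Cxcl2 and Ccl20 negative ones (-1.60, -3.72 and -7.25). Of these, edgeR called only Cxcl2 and Ccl20, and the part of the motif in these values was not tested. A match is a string of letters and not a measured site. An interferon response motif (GAAA and GAAA with any 2 bases between them, on either strand) was found for Cxcl10 and Cxcl14 and in 2.98% of all windows; it shares no base with the other matches. The windows lie at chr6:117168285-117168534 (Cxcl12), chr5:90903649-90903898 (Cxcl2), chr5:90890995-90891244 (Cxcl1), chr5:90785851-90786100 (Cxcl3), chr1:83116516-83116765 (Ccl20), all on the plus strand, and chr11:83578637-83578886 (Ccl9, minus strand).

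The interferon-inducible ligands Cxcl9 and Cxcl10, which draw T cells through Cxcr3, were most abundant in B6 replicate 2. Cxcl10 was at 4.29 and 15.8 CPM in B6 and 3.14 and 1.56 CPM in 129, with the strains apart (log2 fold change -2.08, SE 0.75, edgeR adjusted p = 0.13, DESeq2 adjusted p = 0.031). Without B6 replicate 2 its log2 fold change was -0.91. Cxcl9 had 2 and 44 counts in B6 and 4 and 1 in 129, so nearly all of its counts came from 1 library, and it was not tested. In the same library Irf1, a transcription factor of the interferon response, was at 468 CPM, against 279.7 CPM in B6 replicate 1 and 243 and 239.9 CPM in 129. Irf1 was the only 1 of 7 listed STAT and IRF factors with both B6 libraries above. Both 129 libraries were above for 2: Stat2 (29.6 and 51.1 CPM in B6, 85.4 and 61.3 CPM in 129) and Irf9 (20.1 and 23.7 CPM, 43.3 and 42.0 CPM). The part of these factors in the Cxcl9 and Cxcl10 values was not tested. Of the Cxcl10 exon bases, 133 (5.91%) lie over the opposite-strand gene Art3; no source used here says whether reads were counted by strand.

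Ccl2 and Ccl7, monocyte attractants that share the receptor Ccr2, ranked among the 3 most abundant ligands per length in every library. Cxcl12 ranked 3 per length in both 129 libraries, but 9 and 10 in B6. Ccl2 was at 58.7 and 101 CPM in B6 and 272 and 68.5 CPM in 129 (edgeR log2 fold change 1.09, SE 0.61, adjusted p = 0.30). Ccl7, 8258 bases from Ccl2 on chromosome 11, was at 43.9 and 47.0 CPM in B6 and 151 and 41.5 CPM in 129 (edgeR log2 fold change 1.08, SE 0.55, adjusted p = 0.26). For both, 129 replicate 1 was above B6 and 129 replicate 2 lay within or below the B6 range. Without 129 replicate 1 their log2 fold changes were -0.22 and -0.13, and without 129 replicate 2 they were 1.77 and 1.73, of which Ccl7 was called (adjusted p = 0.028). In CPM per kilobase of exon, Ccl2 was at 51.6 and 88.9 in B6 and 239 and 60.2 in 129, the highest ligand in both 129 libraries. Its place was taken by Ccl7 in B6 replicate 1 (54.9) and by Ccl8 in B6 replicate 2 (114).

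Other CC ligands of the chromosome 11 cluster went in different directions. Ccl9, which acts on Ccr1, was at 0.361 and 0.890 CPM in B6 and 19.5 and 5.83 CPM in 129, with the strains apart (log2 fold change 4.38, SE 0.86). It missed the threshold in edgeR (adjusted p = 0.051) and passed with DESeq2 (adjusted p = 5.8e-07), with DESeq2 size factors (adjusted p = 0.0496) and without 129 replicate 2 (adjusted p = 0.020). Ccl6, a relative of Ccl9 that lies 9245 bases from it, was at 1.20 and 1.53 CPM in B6 and 0.627 and 0.0948 CPM in 129 (edgeR log2 fold change -1.90, SE 0.74, adjusted p = 0.15). For every 100 Ccl9 counts there were 333 and 172 Ccl6 counts in B6 and 3.21 and 1.63 in 129. That separation follows from the CPM values just given, since Ccl9 was higher and Ccl6 lower in both 129 libraries. Among the neighbour ratios computed, Cxcl2 to Cxcl1, Ccl8 to Ccl2 and Ccl11 to Ccl7 were also lower in both 129 libraries. In CPM, Ccl8, Ccl2, Ccl11 and Ccl7 each overlapped between strains. How often the ratio of other gene pairs separates the strains was not computed, so these ratios are not read as strain effects. The ratios of Ccl7 to Ccl2, Cxcl5 to Cxcl1, Ccl17 to Cx3cl1 and Cxcl9 to Cxcl10 overlapped between strains.

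Ccl11 and Ccl8 were highest in B6 replicate 2. Ccl11, also called eotaxin for its draw on eosinophils, was at 2.97 and 21.1 CPM in B6 and 3.09 and 1.90 CPM in 129, with the strains overlapping (log2 fold change -2.25, SE 0.94, edgeR adjusted p = 0.18, DESeq2 adjusted p = 0.043). Without B6 replicate 2 its log2 fold change was -0.30. Ccl8 was at 17.0 and 58.02 CPM in B6 and 22.3 and 15.0 CPM in 129, and without B6 replicate 2 its log2 fold change turned from -1.004 to 0.09.

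The remaining tested ligands did not pass, and most overlapped between strains. Cxcl14, a CXC ligand of epithelia and stroma, was at 8.67 and 22.4 CPM in B6 and 7.72 and 3.13 CPM in 129 (log2 fold change -1.51, SE 0.63). Cxcl16, a transmembrane ligand that can be shed, was at 3.85 and 11.8 CPM in B6 and 10.6 and 3.27 CPM in 129 (log2 fold change -0.15, SE 0.73), and 18.3% of its exon bases lie over Zmynd15 on the opposite strand. Cx3cl1, the other membrane-bound ligand, was at 39.6 and 33.0 CPM in B6 and 56.3 and 28.1 CPM in 129 (log2 fold change 0.22, SE 0.36).

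Ccl25, known for bringing lymphocytes to thymus and gut, had the smallest strain difference of the 18. It was at 21.3 and 16.7 CPM in B6 and 18.9 and 18.8 CPM in 129 (log2 fold change -0.01, SE 0.32). Ccl27a, a ligand of skin, was at 0.803 and 1.29 CPM in B6 and 1.16 and 1.75 CPM in 129 (log2 fold change 0.50, SE 0.55).

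Within each strain the ligands differed between libraries mostly in 1 direction. In 129, replicate 1 was above replicate 2 for 17 of the 18 tested ligands, against 49.5% of all genes tested, and the log2 ratio between them (replicate 1 over replicate 2) had a median of 1.64, against -0.01. The exception was Ccl27a, and Ccl25 and Cxcl3 were nearly level (log2 ratios 0.01 and 0.03). In B6, replicate 2 was above replicate 1 for 15 of the 18, against 50.1% of all genes, with a median log2 ratio of -0.73, against -0.01. The exceptions there were Cxcl2, Ccl25 and Cx3cl1. The ratios ranged in 129 from -0.59 for Ccl27a to 2.82 for Cxcl1, and in B6 from -2.82 for Ccl11 to 0.35 for Ccl25.

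**Figure D4:**
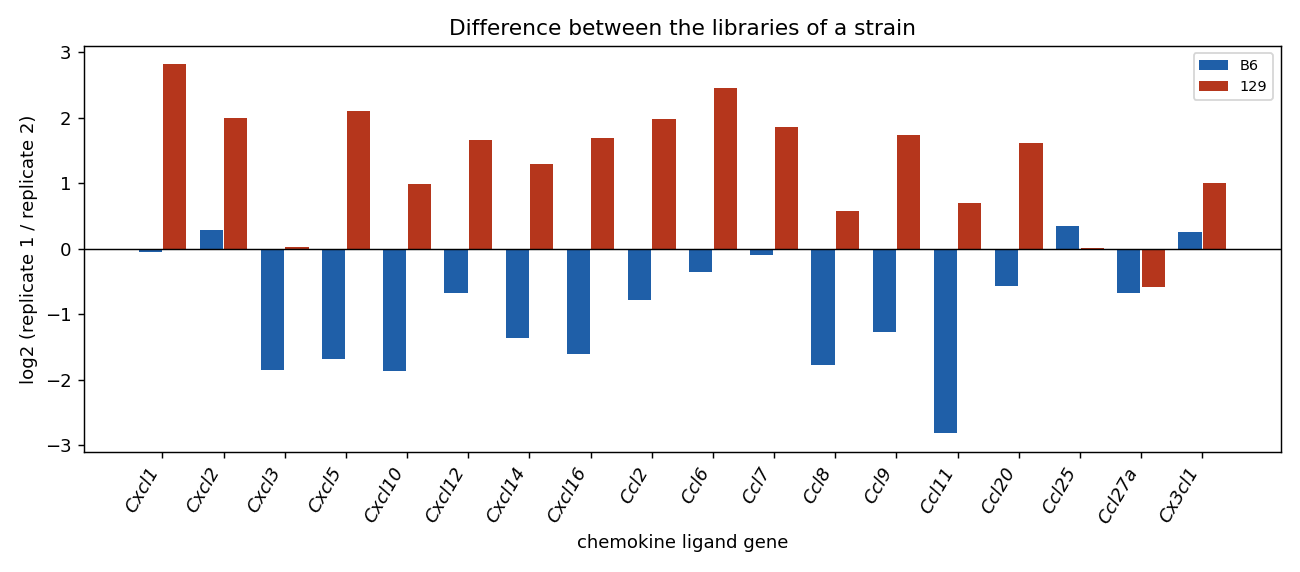
Log2 ratio of replicate 1 to replicate 2 (0.5 added to each count) for the 18 tested ligands in B6 and in 129. The 129 bars reach 2.82 for Cxcl1 and are above 0 for all but Ccl27a, and the B6 bars reach -2.82 for Ccl11 and are above 0 only for Cxcl2, Ccl25 and Cx3cl1.

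Some other lists also differed between the same libraries, and some did so little. In 129, all 10 fibroblast markers were higher in replicate 1 (median log2 ratio 1.29), as were 16 of 17 NF-kappaB pathway genes (0.86) and 5 of 6 tested macrophage markers (1.17), while 1 of 10 spermatogonial markers was (-0.34). The tested endothelial (3 of 6, median -0.19) and Sertoli markers (4 of 7, 0.26) shifted less, as did the STAT and IRF genes (6 of 7, 0.02). In B6, 3 of these endothelial and 5 of these Sertoli markers were higher in replicate 2 (-0.01 and -0.81). In B6, 15 of 17 NF-kappaB pathway genes and 7 of 7 STAT and IRF genes were higher in replicate 2 (median log2 ratios -0.53 and -0.74), but only 2 of 10 fibroblast markers were (0.35). The part of these lists in the ligand values was not tested.

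A further 9 ligands had 10 or more counts in a strain but too few to be tested. Of these, 3 were seen almost only in 129: Ccl24, an eotaxin, had 0 and 0 counts in B6 and 35 and 2 in 129; Cxcl13, a B cell attractant, had 0 and 0 against 10 and 2; Ccl3 had 1 and 1 against 19 and 3. Most of these counts came from 129 replicate 1. Ccl22 had 12 and 11 counts in B6 against 0 and 1 in 129, and Ccl5 had 8 and 16 against 0 and 1. Ccl17, which shares the receptor Ccr4 with Ccl22, had 26 and 7 counts in B6 and 7 in each 129 library. Ccl28, a mucosal ligand, had 0 and 21 counts in B6 and 1 in each 129 library, so that its B6 value is that of 1 library. Cxcl9 and Cxcl15, described above, complete the 9. Nearest to the limit of 10 counts lay Cxcl13 and Cxcl15 with 12 in 129 on the inside, and Ccl4 with 6 in B6 on the outside.

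The 17 ligand rows under 10 counts included Ccl4, Ccl1, Xcl1 and Ccl12, with 6, 3, 1 and 1 counts in all. The 13 rows with no count were Cxcl17, Ccl26, Ccl27b and the rows of Ccl19, Ccl21a, Ccl21b and Ccl21c, with 2 further Ccl27a identifiers. Ccl19, Ccl21 and Ccl27 have near-identical copies, whose reads the counting may have dropped, so their values are uncertain.

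The receptors of these ligands were scarce. Of 19 conventional chemokine receptor genes, 17 were under 1 CPM in every library and 4 had no count at all. Among the receptors of the called or abundant ligands, Cxcr2 reached 0.522 CPM at most, and Ccr2 and Ccr6 stayed at or under 0.0989 CPM. Cxcr4, the receptor of Cxcl12, had the highest CPM of them in each library, at 7.99 and 7.91 CPM in B6 and 1.79 and 3.36 CPM in 129, with the strains apart in the direction opposite to its ligand. Its log2 fold change was -1.62 (SE 0.48, edgeR adjusted p = 0.092, DESeq2 adjusted p = 0.024). Neither of the 2 tested receptors was called by edgeR, 1 had an unadjusted p under 0.05, DESeq2 called 1 and limma-voom 0. Cxcr5 was the other, at 0.0803 and 0.791 CPM in B6 and 0.290 and 1.04 CPM in 129.

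Atypical receptors, which bind chemokines without the usual signalling and often remove them, were also not called (0 of 4 tested by edgeR, DESeq2 or limma-voom, 2 with an unadjusted p under 0.05 in edgeR). Ackr3, the scavenger of Cxcl12, was at 5.50 and 4.45 CPM in B6 and 24.9 and 6.02 CPM in 129 (edgeR log2 fold change 1.63, SE 0.68, adjusted p = 0.18). Ccrl2 was at 1.08 and 3.76 CPM in B6 and 1.303 and 0.142 CPM in 129.

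**Figure D5:**
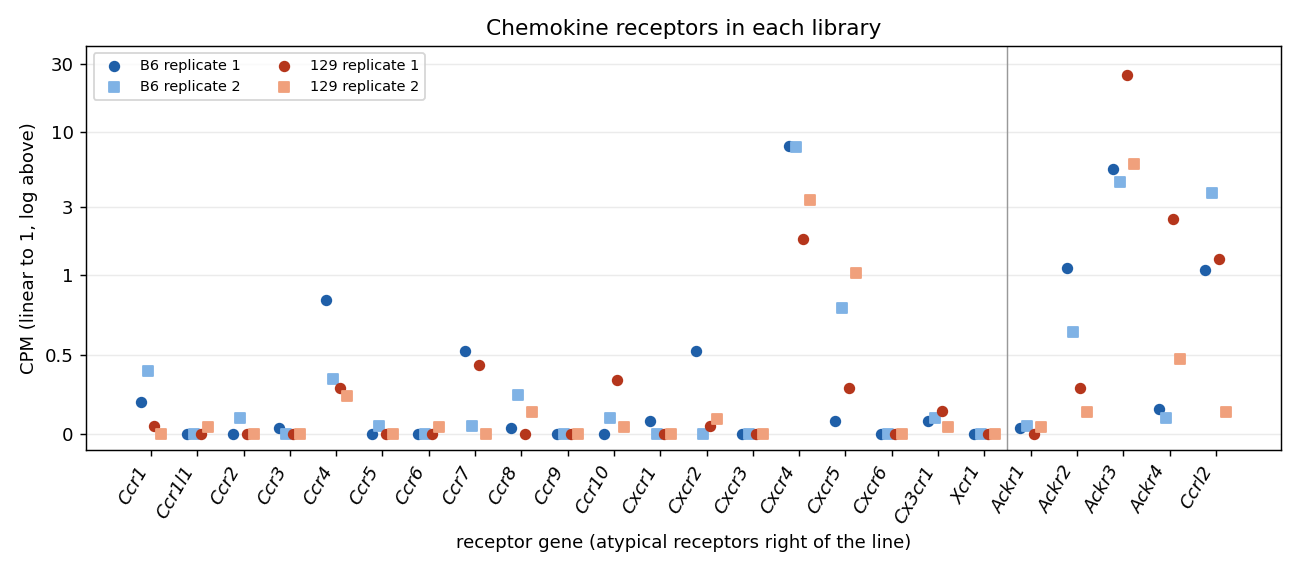
CPM of 19 chemokine receptors and, right of the line, 5 atypical receptors in each library, on an axis that is linear up to 1 CPM and logarithmic above. Cxcr4 lies at 7.99 and 7.91 CPM in B6 and 1.79 and 3.36 CPM in 129, Ackr3 reaches 24.9 CPM in 129 replicate 1, and most other receptors stay under 1 CPM.

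Most listed genes that induce, control or cleave the ligands were not called. Over all 16005 genes tested, 4492 had an unadjusted p under 0.05 in edgeR. Among 17 factors, kinases and feedback genes of NF-kappaB signalling, 1 rose and 0 fell in edgeR, while 16 missed its threshold (median log2 fold change 0.66, 6 with an unadjusted p under 0.05). The gene that rose was Bcl3, an atypical IkappaB protein that works with NF-kappaB subunits, from 4.86 and 9.70 CPM in B6 to 64.8 and 69.6 CPM in 129 (edgeR log2 fold change 3.22, SE 0.37, adjusted p = 0.029). DESeq2 also called 1 lower, the NF-kappaB subunit gene Rel, at 38.6 and 55.2 CPM in B6 and 26.4 and 21.9 CPM in 129 (edgeR log2 fold change -0.96, SE 0.29, adjusted p = 0.097), and limma-voom called Bcl3 alone. Of highest mean CPM over the 4 libraries in this list were Zfp36, an RNA-binding feedback regulator (181 and 260.3 CPM in B6, 225 and 79.9 CPM in 129), and the kinase gene Chuk (129 and 111 CPM, 102 and 88.8 CPM). In edgeR no member passed among 7 STAT and IRF factors (median 0.16, 3 with an unadjusted p under 0.05), of which Stat3 (log2 fold change 0.12, SE 0.19) and Irf1 (-0.63, SE 0.26) had the highest mean CPM over the 4 libraries. Nor did any pass among 13 receptors for inducing signals (median 0.54, 5 with an unadjusted p under 0.05) or 5 tested proteases that shed or trim ligands (median 0.87, 4 with an unadjusted p under 0.05). DESeq2 called 1 of these STAT and IRF factors (Irf9), 3 of the receptors (Il17rc, Tlr4 and Tnfrsf1a) and 2 of the proteases (Mmp2 and Mmp14), all higher in 129, and limma-voom called 0 in these 3 lists. Over all genes tested DESeq2 called 15.3%, with 9.63% higher in 129.

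By mean CPM over the 4 libraries, which does not give the order within a strain, Ifnar1 and Ifngr2 came first of the inducing receptors, at 202 and 169 CPM and at 56.8 and 64.6 CPM in B6, and at 134 and 183 CPM and at 35.4 and 45.0 CPM in 129. By the same mean, the matrix metalloproteinase genes Mmp2 and Mmp14 came first of the proteases, with Mmp2 at 79.1 and 133 CPM in B6 and 417 and 182 CPM in 129 (edgeR adjusted p = 0.093) and Mmp14 at 70.1 and 60.7 CPM in B6 and 309.9 and 106 CPM in 129. The sheddases of Cx3cl1 and Cxcl16 did not pass either: Adam10 was at 0.67 (SE 0.27) and Adam17 at -0.44 (SE 0.18) on the log2 fold change scale. Il6 and Il1a, inducing cytokines that were tested with Il1b, followed the order of the ligands in 129: Il6 was at 18.4 and 22.1 CPM in B6 and 80.2 and 17.4 CPM in 129, and Il1a at 0.120 and 0.890 CPM against 17.4 and 1.99 CPM. Neither passed in edgeR (adjusted p = 0.26 and 0.099, with 1 of the 3 under an unadjusted p of 0.05), and DESeq2 called Il1a. Tnf stayed under 1 CPM in every library, and Il4, Il13 and Il17a had no count. The platelet chemokine genes Pf4 and Ppbp, which the name rule leaves out, also stayed under 1 CPM.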

How the data were processed

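The 4 libraries, 2 per strain, were grouped by the strain and replicate number in their titles. The deposited table holds raw counts for each gene. The submitters' processing notes name bcl2fastq 2.20, cutadapt 3.4, HISAT2 2.2.1 and HTSeq 0.13.5 for the authors' counts, beside DESeq2 1.30.1 and build mm10. The libraries were stranded mRNA libraries per the labels' protocols, but the annotation release, the strand setting and the treatment of reads with several matches are not given here by any source. Both strains' reads were mapped to mm10, a C57BL/6 sequence, and what this does to 129 ligand counts was not tested.

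The counts of all genes were analysed with edgeR 4.0.16 (R 4.3.3): filterByExpr kept 16005 genes, TMM factors scaled the libraries, and a robust quasi-likelihood model held strain alone. Benjamini-Hochberg adjustment covered every gene tested, and a gene was called at an adjusted p under 0.05. Each SE was taken as |log2 fold change| over the square root of F. Levels per length use exon lengths of the mm10 GENCODE annotation, in which 99.8% of identifiers and all 44 members were found. Promoter sequences are RefSeq's. For a symbol with several identifiers, the one with the most counts carries the plain name. With 2 libraries per strain the smallest exact permutation p is 0.333, so none is given. Libraries of a strain were no duplicates (mean chi-square per gene 59.7 in B6 and 76.2 in 129). The fits were also run on data simulated with the dispersions fitted to these libraries. The outcome is not given here, and no call rests on it.

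The members and gene lists were chosen with earlier results of these data known. Every member with 10 or more counts in a strain is named with its values, as are the 2 most abundant tested genes and the called genes of each pathway list. Cxcr2, Ccr2, Ccr6, Adam10, Adam17, Irf9, Il17rc, Tlr4, Tnfrsf1a, Il1b, Rel, Tnf, Il4, Il13, Il17a, Pf4, Ppbp and the cell type markers lie outside that rule and were picked with their values known. The same holds for Stat2. The alternatives were DESeq2 size factors, unscaled library totals, no filter, a filter of 1 CPM in 2 libraries, DESeq2 1.42.0, limma-voom (limma 3.58.1), non-robust estimation, a replicate block and leaving out each library. The legacy edgeR fit was added after the data were examined.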

Additional observations from a re-analysis of the deposited data

How the results depend on the processing

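Over all genes, 457 were called with the fit reported; the number was 1052 with library totals, 260 without a filter, 301 with the stricter filter, 2455 with DESeq2, 263 with limma-voom and 844 with the replicate block. Leaving out 1 library gave 0 to 827 calls. The lone library of a strain is then assumed to vary like the other strain's. Of the ligands, 3 were called, and DESeq2 called 6. Those higher in 129 numbered 1, and 2 with DESeq2 size factors, library totals, DESeq2, non-robust estimation or the replicate block, where Ccl9 was added. Those lower in 129 numbered 2, but 4 with DESeq2 and 1 with limma-voom or the legacy form. With 1 library left out, 0 to 4 ligands were called, 0 to 4 higher and 0 lower. The 4 came without 129 replicate 2: Cxcl12, Ccl9, Cxcl1 and Ccl7. No receptor was called except 1 by DESeq2. Ccl25 turned from -0.01 to 0.032 with library totals.

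Signs turned on leaving out 1 library for Ccl8 (log2 fold change -1.64 to 0.087), Cxcl16 (-1.23 to 0.80), Ccl25 (-0.22 to 0.17), Cxcl5 (-0.80 to 1.62), Cxcl1 (-0.92 to 1.89), Cx3cl1 (-0.36 to 0.63), Ccl7 (-0.13 to 1.73) and Ccl2 (-0.22 to 1.77), none of which was called with all 4 libraries. Cxcl12, Cxcl2 and Ccl20 kept their direction in each alternative run. Cxcl3 was not tested under the stricter filter. Same-numbered libraries did not deviate together over genes (r = -0.014, across genes), so the replicate numbers are not taken as pairs; with the block Cxcl12, Cxcl2, Ccl20 and Ccl9 were called (adjusted p = 0.030, 0.029, 0.015 and 0.043). The cause of these changes was not tested. Depth limits the 9 ligands that had 10 or more counts and were not tested.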
